A study of Homo sapiens with 12 samples.

Results

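Interferon-stimulated genes are the genes that cells switch on when an interferon binds its receptor. The receptor's JAK kinases phosphorylate STAT proteins, which bind interferon-stimulated response elements (ISREs) in promoters together with IRF9, or gamma-activated sites (GAS) without it. The products sense or degrade foreign nucleic acid, restrict viruses, slow translation and growth, and raise antigen presentation, and many of them are also transcribed at a low level in tumour cells with no interferon added. The 44 interferon-stimulated genes described here were given as a list of names, drawn up with earlier results of these data known. Of these, 43 have a row among the 28576 genes of the deposited table, and 40 had at least 0.5 CPM (reads scaled to a fixed library total, as deposited) in at least 3 libraries and were tested among 18674 genes. The level of XAF1 was not analysed here.

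Poly(A) RNA was sequenced from cultures of SHEP, a human neuroblastoma line. The cells carry MYCN-ER, a fusion of the transcription factor MYCN to an oestrogen receptor domain that 4-hydroxytamoxifen (OHT, 200 nM) activates, and a short hairpin RNA against TCEAL1, a transcription elongation factor A-like gene, that doxycycline (Dox, 1 µg/ml) induces. There are 4 groups of 3 libraries, namely untreated cells (Ctrl), cells given OHT, cells given Dox, and cells given OHT and Dox together (OHT_Dox). Both constructs are in every library, so what OHT and Dox do as compounds cannot be told apart from what the fusion and the hairpin do. No interferon treatment, treatment time or clone is named in the labels, and replicates are not said to be separate cultures, so p-values measure only the spread between these libraries, which may be technical. In bulk RNA, fewer cells of a type and less RNA per cell cannot be told apart.

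TCEAL1, the target of the hairpin, lay between 8.23 and 10.7 CPM over the 6 libraries without Dox, and between 1.73 and 2.74 CPM over the 6 with Dox, so the Dox labels match its level. MYCN transcripts, from the fusion and the endogenous gene alike, lay between 376 and 644 CPM over all 12 libraries. They were lower in OHT_Dox than in Dox, with a log2 fold change of -0.34 ± 0.10 (adjusted p = 0.0191), so MYCN transcripts differed between the groups of that comparison. Whether that bears on the interferon-stimulated genes was not tested. The libraries hold 44466458 to 57694970 reads. The summed level of 8 mesenchymal neuroblastoma markers, which SHEP cells are known for, was 4334 to 4604 CPM (Ctrl), 4143 to 4397 CPM (OHT), 3639 to 3824 CPM (Dox) and 3599 to 3803 CPM (OHT_Dox), and was thus lower with Dox. Most of it was VIM and FN1, which fell in Dox against Ctrl as did CD44 and SNAI2, while YAP1 rose. The summed level of 5 adrenergic neuroblastoma markers was 67.4 to 71.9 CPM (Ctrl), 74.6 to 83.96 CPM (OHT), 67.6 to 73.7 CPM (Dox) and 79.97 to 84.5 CPM (OHT_Dox), higher with OHT without overlap. Most of it was HAND2, while DBH was at most 0.581 CPM. The part of these shifts in the Dox and OHT results was not tested. The summed level of 5 haematopoietic markers was 258.8 to 306 CPM over all groups, most of it CSF1R, while PTPRC, the pan-leukocyte marker, was at most 0.413 CPM.

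The promoters were searched for short motifs, as runs of letters only. Of the 44 genes, 36 have a promoter in the RefSeq table for GRCh38.p14, each 300 bases around the transcription start. The ISRE core, searched as GAAANNGAA on both strands, occurred in 24 of the 36 (66.7%), against 2264 of all 27305 promoters of that length (8.29%). The GAS word TTCNNNGAA occurred in 11 of the 36 (30.6%, against 7.88% of all promoters), and CACGTG, the E-box that MYC family proteins bind, in 3 of the 36 (8.33%, against 7.43%), namely those of HERC5, IRF9 and ISG20. Promoters of 5 genes described below are printed 5′ to 3′ on the strand of the gene, with the letters matching an ISRE core on either strand in capitals. IFIT1 and IFIT5 are shown because these neighbouring genes moved in opposite directions with OHT. IFI44, GBP3 and SAMD9 are examples whose fall with OHT (for SAMD9 where Dox was present) was called in every alternative tried. That also held for other members, among them SAMD9L and IFI16, whose promoters hold no ISRE core and are not printed. The 5 printed promoters all hold a core, so they do not represent all members that fell.

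IFIT1: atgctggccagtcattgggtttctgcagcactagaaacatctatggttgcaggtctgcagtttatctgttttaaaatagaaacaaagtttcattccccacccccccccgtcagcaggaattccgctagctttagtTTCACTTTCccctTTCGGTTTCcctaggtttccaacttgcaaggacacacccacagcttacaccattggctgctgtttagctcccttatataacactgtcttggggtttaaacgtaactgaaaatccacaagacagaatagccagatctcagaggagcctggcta

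IFIT5: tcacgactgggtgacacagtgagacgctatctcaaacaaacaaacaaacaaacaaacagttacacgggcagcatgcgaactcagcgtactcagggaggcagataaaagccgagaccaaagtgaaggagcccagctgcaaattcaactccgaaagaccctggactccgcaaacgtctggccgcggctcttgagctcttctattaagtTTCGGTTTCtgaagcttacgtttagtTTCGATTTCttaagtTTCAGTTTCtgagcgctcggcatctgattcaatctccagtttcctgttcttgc

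IFI44: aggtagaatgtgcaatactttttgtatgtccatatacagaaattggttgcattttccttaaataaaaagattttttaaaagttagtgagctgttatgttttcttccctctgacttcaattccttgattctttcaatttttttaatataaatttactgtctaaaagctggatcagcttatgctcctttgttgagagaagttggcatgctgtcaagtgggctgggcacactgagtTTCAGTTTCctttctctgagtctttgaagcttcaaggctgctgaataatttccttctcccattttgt

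GBP3: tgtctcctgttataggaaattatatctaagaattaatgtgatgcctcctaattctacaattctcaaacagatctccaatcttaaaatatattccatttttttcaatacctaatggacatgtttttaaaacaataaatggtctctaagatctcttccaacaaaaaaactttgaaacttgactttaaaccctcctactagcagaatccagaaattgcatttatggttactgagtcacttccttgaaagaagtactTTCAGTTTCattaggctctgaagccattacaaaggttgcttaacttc

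SAMD9: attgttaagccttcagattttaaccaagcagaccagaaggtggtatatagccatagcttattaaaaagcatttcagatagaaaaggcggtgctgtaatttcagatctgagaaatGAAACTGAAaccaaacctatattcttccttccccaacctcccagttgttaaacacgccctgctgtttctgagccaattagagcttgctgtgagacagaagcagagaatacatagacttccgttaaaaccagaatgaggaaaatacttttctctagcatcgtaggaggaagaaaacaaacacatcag

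These windows are chr10:89392373-89392672 (plus strand), chr10:89414318-89414617 (plus strand), chr1:78649539-78649838 (plus strand), chr1:89022817-89023116 (minus strand) and chr7:93117930-93118229 (minus strand). IFIT1 has 2 ISRE cores and IFIT5 has 3, so the letters of this motif are present in the promoters of a gene that fell and of a gene that rose. Of the 9 members that fell with OHT in both backgrounds, 6 have a promoter in the table and 4 of these hold an ISRE core. Of the 22 members that were called in no comparison, 19 have a promoter and 13 hold one. A match is a run of letters and was not measured as a binding site.

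The level of the 40 genes in untreated cells spanned a wide range. Per kilobase of the longest annotated transcript, in the mean of the 3 Ctrl libraries, IFITM3 (319 CPM per kb), IFITM2 (166 CPM per kb) and B2M (150.1 CPM per kb) were the highest. IFI6, UBE2L6, IFI44, IFITM1, ISG15 and IFI16 followed, between 20.4 and 29.99 CPM per kb, and SLFN5, IFI44L, IFIT2 and IRF7 stood near the low end, between 0.878 and 1.03 CPM per kb. MX1, a GTPase that blocks incoming viruses, reached 0.795 CPM at most and passed 0.5 CPM in 2 libraries, so it was not tested. OAS2 (at most 0.27 CPM) and SLFN11 (at most 0.109 CPM) were not tested either. Just inside the limit lay IFI27 (0.36 to 0.851 CPM, 5 libraries at 0.5 CPM or more), OASL (0.252 to 0.797 CPM, 6 libraries) and HERC5 (0.448 to 1.37 CPM, 11 libraries).

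With OHT a minority of these genes fell and fewer rose. Without Dox, 9 of the 40 fell and 3 rose, and with Dox 14 fell and 1 rose (limma, Benjamini-Hochberg adjusted p below 0.05 over all genes tested). Over all 18674 genes 8.79% fell and 12.6% rose without Dox, and 14.5% fell and 11.5% rose with Dox. The split with Dox depends on the scaling of the libraries. After trimmed-mean rescaling 11.9% of all genes fell and 13.7% rose with Dox, and 13 members fell and 1 rose. After removal of transcript length and GC trends 14 members fell without Dox, and so did 13.5% of all genes. The 9 that fell without Dox also fell with Dox, in libraries that the comparisons do not share: SLFN5, SAMD9L, IFIT1, GBP3, IFIT2, IFI44, IRF2, GBP1 and IFI16. The median log2 fold change of the 40 genes was -0.14 without Dox and -0.12 with Dox, against -0.01 and -0.03 over all genes tested, and 29 of the 40 were below 0 in each background. Across the 40 genes the effects in the separate backgrounds had a Pearson correlation of 0.734 and a Spearman correlation of 0.600, and 28 had the same sign (genes are not independent replicates, and all libraries come from 1 cell line). The overlap of calls, the counts of signs and these correlations are not given here for all genes. They are therefore not read as particular to the members. In 7 of the 40, every one of the 6 libraries with OHT lay below all 6 without, against 5.8% of all genes, and in IFIT5 alone all 6 lay above, against 8.74%.

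**Figure D1:**
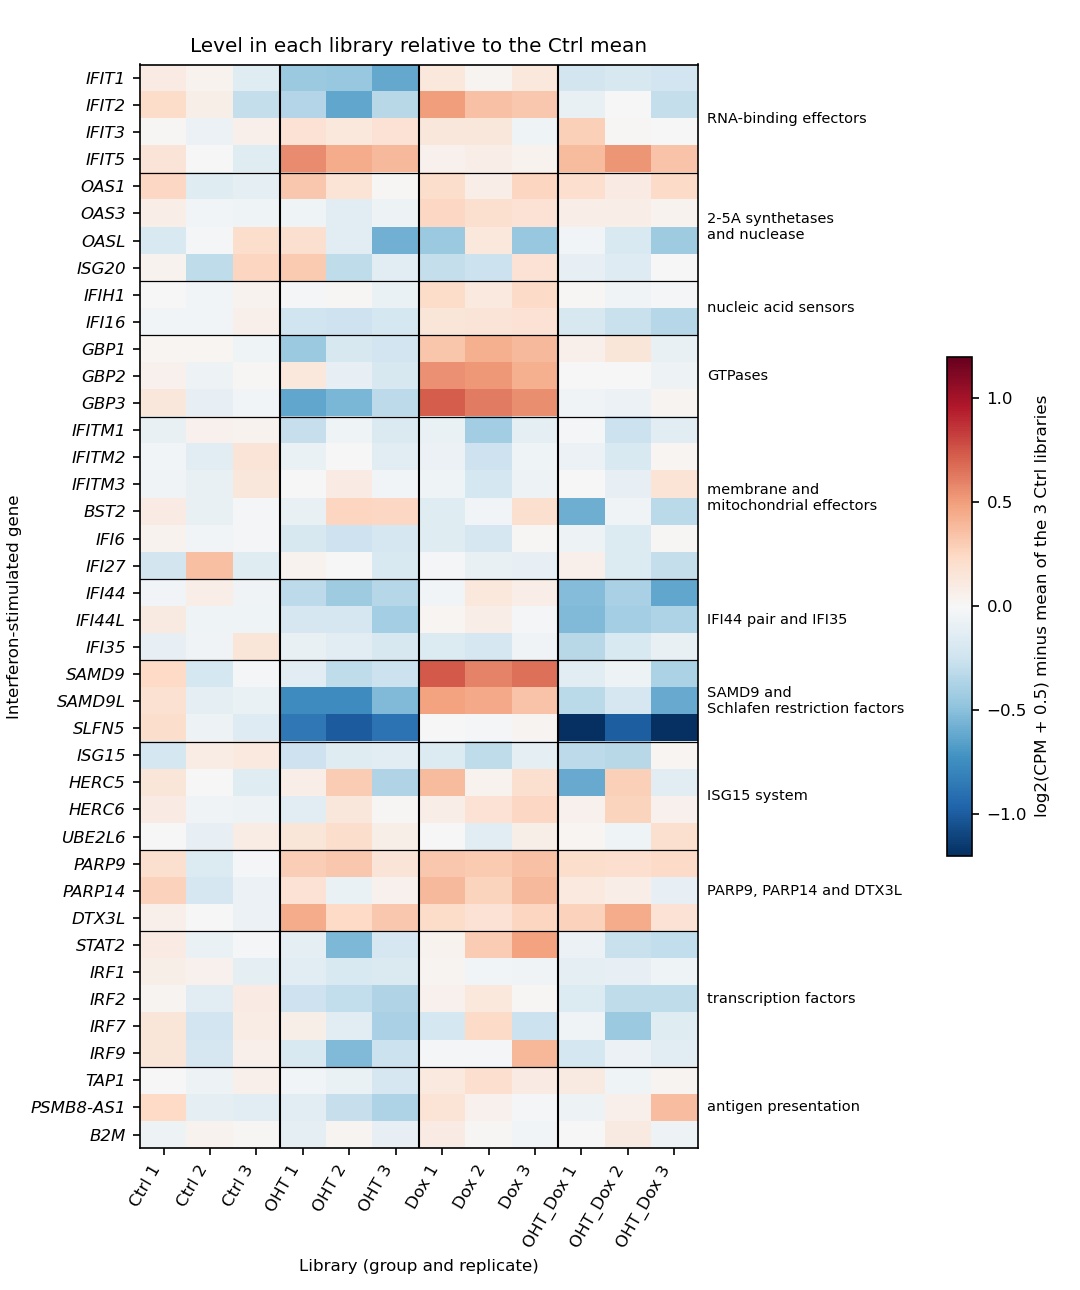
Level of the 40 tested interferon-stimulated genes in each of the 12 libraries, as log2(CPM + 0.5) minus the mean of the 3 Ctrl libraries (colour scale), with genes as lines grouped by role and libraries as columns grouped by treatment. SLFN5, SAMD9L, IFI44 and IFI16 are blue in all 6 libraries with OHT, IFIT5 is red in all 6, and SAMD9, GBP1, GBP2 and GBP3 are red in the 3 Dox libraries.

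Of the 40 genes, the deepest fall with OHT in both backgrounds was that of SLFN5, a nuclear Schlafen protein that represses transcription of invading viral genomes. SLFN5 (ENSG00000166750) stood at 10.8, 8.83 and 8.25 CPM (Ctrl), 4.86, 4.37 and 4.77 CPM (OHT), 9.25, 9.09 and 9.44 CPM (Dox) and 3.55, 4.39 and 3.55 CPM (OHT_Dox). Every library with OHT lay below 5 CPM and every library without it above 8 CPM, while OHT and OHT_Dox overlapped. SLFN5 was 1.89-fold lower in OHT than in Ctrl, a log2 fold change of -0.92 ± 0.12 (adjusted p = 1.15e-05), and 2.26-fold lower in OHT_Dox than in Dox, -1.18 ± 0.12 (adjusted p = 5.47e-07). In Dox against Ctrl its log2 fold change was 0.00 ± 0.12.

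SAMD9L and SAMD9 are neighbouring genes for related proteins that block poxvirus translation and slow cell growth. SAMD9L (ENSG00000177409) stood at 17.5, 14.1 and 14.5 CPM (Ctrl), 8.83, 8.85 and 10.5 CPM (OHT), 21.5, 21.1 and 19.5 CPM (Dox) and 12.1, 13.2 and 9.85 CPM (OHT_Dox). All OHT and OHT_Dox libraries lay below all Ctrl and Dox libraries, and the Dox libraries lay above Ctrl. SAMD9L fell with OHT in both backgrounds, by log2 fold changes of -0.68 ± 0.11 (adjusted p = 1.59e-04) without Dox and -0.80 ± 0.11 (adjusted p = 2.35e-05) with Dox.

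SAMD9 (ENSG00000205413) stood at 22, 16 and 18.2 CPM (Ctrl), 17, 14.9 and 15.5 CPM (OHT), 31.2, 28.3 and 29.5 CPM (Dox) and 17, 17.8 and 14.1 CPM (OHT_Dox). Its 3 Dox libraries lay above all other 9, and the other groups overlapped. SAMD9 fell with OHT where Dox was present, with a log2 fold change of -0.85 ± 0.11 (adjusted p = 7.17e-06) or 1.80-fold, and stood at -0.23 ± 0.11 (adjusted p = 0.134) where it was not. In OHT_Dox against OHT its log2 fold change was 0.04 ± 0.11 (adjusted p = 0.914).

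Of the RNA-binding IFIT proteins, which hold foreign RNA away from the ribosome, IFIT1 and IFIT2 fell, IFIT5 rose and IFIT3 did not pass the test. IFIT1 (ENSG00000185745), which recognises unmethylated caps, stood at 8.04, 7.69 and 6.69 CPM (Ctrl), 5.33, 5.29 and 4.69 CPM (OHT), 8.2, 7.64 and 8.2 CPM (Dox) and 6.31, 6.48 and 6.3 CPM (OHT_Dox). The 6 libraries with OHT lay below the 6 without. IFIT1 fell by a log2 fold change of -0.51 ± 0.10 (adjusted p = 0.00148) without Dox and -0.31 ± 0.10 (adjusted p = 0.0339) with Dox. The call with Dox was lost when any 1 of the 3 Dox or 3 OHT_Dox libraries was left out (-0.34 to -0.29, adjusted p = 0.0556 to 0.0915), with no filter on low genes, after trimmed-mean rescaling and after removal of length and GC trends.

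IFIT2 (ENSG00000119922), a partner of IFIT1 that promotes apoptosis, stood at 4.29, 3.81 and 2.88 CPM (Ctrl), 2.72, 2.18 and 2.77 CPM (OHT), 5.33, 4.74 and 4.66 CPM (Dox) and 3.38, 3.64 and 2.88 CPM (OHT_Dox). OHT lay below Ctrl and OHT_Dox below Dox with no overlap, while OHT_Dox overlapped Ctrl. IFIT2 fell by -0.44 ± 0.15 (adjusted p = 0.038) and -0.51 ± 0.15 (adjusted p = 0.0126) on the log2 scale. The call without Dox was lost without any 1 of Ctrl replicates 1 and 2, the 3 OHT libraries or Dox replicate 2 (-0.49 to -0.33) and with no filter, and that with Dox was lost without Dox replicate 1 or OHT_Dox replicate 3 (-0.46 to -0.43). Of IFIT2, 8.7% of the exon bases overlap AL353751.1 on the same strand, so some of its reads are uncertain.

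IFIT5 (ENSG00000152778), which binds RNA with triphosphate ends, stood at 28.4, 25.4 and 22.9 CPM (Ctrl), 38, 34.8 and 33.5 CPM (OHT), 26.5, 26.8 and 26.2 CPM (Dox) and 33.2, 36.8 and 32.5 CPM (OHT_Dox). All 6 libraries with OHT lay above all 6 without. IFIT5 rose by 0.47 ± 0.08 (adjusted p = 2.71e-04) without Dox and 0.36 ± 0.08 (adjusted p = 0.00246) with Dox on the log2 scale. IFIT1 and IFIT5 are next to each other among the annotated genes, and the ratio of IFIT5 to IFIT1 reads was 3.29 to 3.53 in Ctrl, 6.59 to 7.14 in OHT, 3.20 to 3.51 in Dox and 5.15 to 5.69 in OHT_Dox. IFIT3, the partner that stabilises IFIT1, ranged from 6.2 to 8.13 CPM, with 0.16 ± 0.11 and 0.03 ± 0.11 for OHT without and with Dox.

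**Figure D2:**
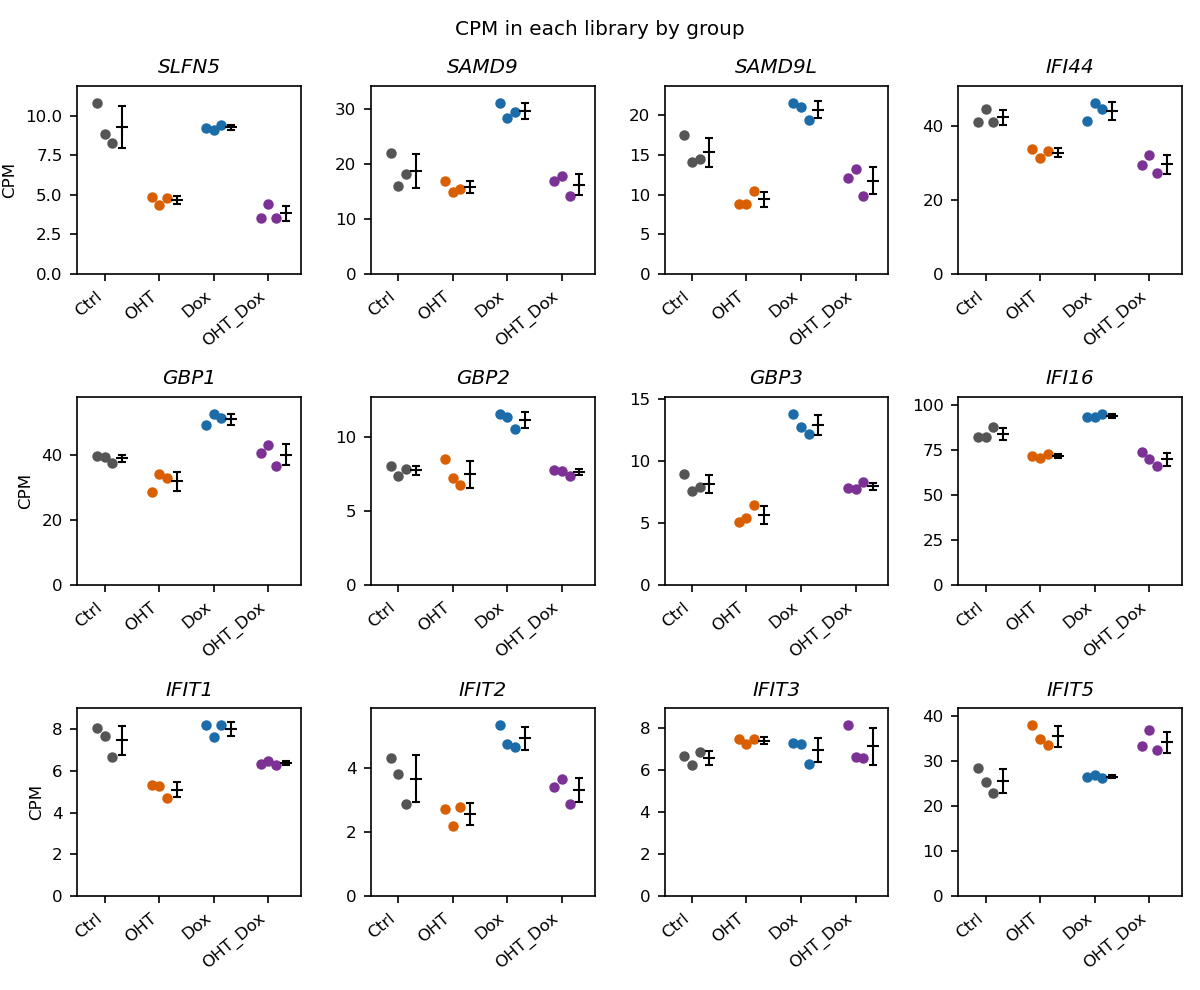
CPM of 12 interferon-stimulated genes in each library, by group (points are single libraries, and the black bar beside them is the mean ± SD of the 3). SLFN5, SAMD9L, IFI44, IFI16 and IFIT1 have all OHT and OHT_Dox libraries below all Ctrl and Dox libraries, IFIT5 has them above, and SAMD9, GBP2 and GBP3 are highest in Dox, above all 9 other libraries.

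IFI44 and IFI44L, adjacent genes for cytoplasmic antiviral proteins, both fell with OHT where Dox was present, and IFI44 also where it was not. IFI44 (ENSG00000137965) stood at 41.3, 44.9 and 41.1 CPM (Ctrl), 34, 31.5 and 33.3 CPM (OHT), 41.4, 46.3 and 44.8 CPM (Dox) and 29.5, 32.4 and 27.3 CPM (OHT_Dox). All 6 libraries with OHT lay below 35 CPM and all 6 without above 41 CPM. IFI44 fell by -0.36 ± 0.07 (adjusted p = 0.00122) without Dox and -0.57 ± 0.07 (adjusted p = 1.06e-05) with Dox on the log2 scale.

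IFI44L (ENSG00000137959) stood at 5.75, 5.09 and 5.1 CPM (Ctrl), 4.53, 4.54 and 3.88 CPM (OHT), 5.38, 5.61 and 5.2 CPM (Dox) and 3.51, 3.86 and 4.0 CPM (OHT_Dox). Here too the 6 libraries with OHT lay below the 6 without. IFI44L fell with Dox present, by -0.46 ± 0.11 (adjusted p = 0.0054), and stood at -0.27 ± 0.11 (adjusted p = 0.0995) without Dox. IFI35, a protein that binds NMI and dampens RIG-I signalling, ranged from 7.77 to 11 CPM and did not pass the test in any comparison.

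Of the nucleic acid sensors, IFI16 (ENSG00000163565), which detects DNA in the nucleus and cytoplasm, stood at 82.5, 82.2 and 88.1 CPM (Ctrl), 71.5, 70.9 and 72.9 CPM (OHT), 93.5, 93.6 and 95.1 CPM (Dox) and 73.7, 69.9 and 66.4 CPM (OHT_Dox). The OHT and OHT_Dox libraries lay below all the others, and the Dox libraries were the highest. IFI16 fell by -0.23 ± 0.06 (adjusted p = 0.00511) without Dox and -0.42 ± 0.06 (adjusted p = 1.20e-05) with Dox on the log2 scale. The RNA sensor IFIH1 (MDA5) ranged from 11 to 13.7 CPM and had a log2 fold change of -0.21 ± 0.08 (adjusted p = 0.075) in OHT_Dox against Dox.

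The guanylate-binding proteins GBP1, GBP2 and GBP3 are GTPases that attack intracellular pathogens, and their genes lie side by side. GBP1 (ENSG00000117228) stood at 39.6, 39.5 and 37.6 CPM (Ctrl), 28.4, 34 and 33 CPM (OHT), 49.1, 52.6 and 51.2 CPM (Dox) and 40.7, 43 and 36.6 CPM (OHT_Dox). OHT lay below Ctrl, Dox lay above all other groups, and OHT_Dox overlapped Ctrl. With OHT, GBP1 fell by -0.29 ± 0.08 (adjusted p = 0.00923) without Dox and -0.35 ± 0.08 (adjusted p = 0.00199) with Dox on the log2 scale. Without OHT replicate 1 the call in OHT against Ctrl was lost (-0.21, adjusted p = 0.0686).

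GBP3 (ENSG00000117226) stood at 8.95, 7.55 and 7.9 CPM (Ctrl), 5.1, 5.4 and 6.43 CPM (OHT), 13.8, 12.7 and 12.2 CPM (Dox) and 7.86, 7.73 and 8.3 CPM (OHT_Dox). The OHT libraries were the lowest 3, the Dox libraries the highest 3, and OHT_Dox lay within the range of Ctrl. GBP3 fell with OHT by -0.49 ± 0.11 (adjusted p = 0.0022) without Dox and -0.66 ± 0.11 (adjusted p = 1.23e-04) with Dox. GBP2 (ENSG00000162645) stood at 8.0, 7.38 and 7.8 CPM (Ctrl), 8.49, 7.18 and 6.71 CPM (OHT), 11.5, 11.3 and 10.5 CPM (Dox) and 7.73, 7.71 and 7.38 CPM (OHT_Dox), with the 3 Dox libraries above all others and no order among the other groups. GBP2 fell in OHT_Dox against Dox, by -0.52 ± 0.10 (adjusted p = 7.69e-04), and stood at -0.05 ± 0.10 (adjusted p = 0.766) in OHT against Ctrl. Of GBP2, 9.9% of the exon bases overlap GBP7 on the same strand, so some of its reads are uncertain.

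Among the transcription factors, IRF2 (ENSG00000168310), a repressor that competes with IRF1 for ISREs, stood at 18, 15.9 and 18.8 CPM (Ctrl), 14.6, 14.2 and 13.6 CPM (OHT), 18.2, 19.1 and 17.7 CPM (Dox) and 15.6, 14.1 and 14.1 CPM (OHT_Dox). Its 6 libraries with OHT lay below the 6 without. IRF2 fell by -0.30 ± 0.08 (adjusted p = 0.0148) without Dox, lost without Ctrl replicate 3 or OHT replicate 3 (-0.27 to -0.25), and by -0.32 ± 0.08 (adjusted p = 0.00822) with Dox.

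STAT2 (ENSG00000170581), which joins IRF9 in the ISRE-binding complex, stood at 22.2, 19.6 and 20.5 CPM (Ctrl), 19.2, 14.1 and 18 CPM (OHT), 21.4, 25.8 and 29.2 CPM (Dox) and 19.7, 17.2 and 16.8 CPM (OHT_Dox). OHT_Dox lay below Dox with no overlap. STAT2 fell with Dox present, by -0.49 ± 0.11 (adjusted p = 0.00369), and stood at -0.28 ± 0.11 (adjusted p = 0.087) without it. The other 3 factors did not pass the test in any comparison: IRF1, an activator, at 11.9 to 14.2 CPM, IRF7, which amplifies interferon production, at 1.4 to 2.54 CPM, and IRF9 at 4.18 to 8.38 CPM. In IRF9, 48.4% of the exon bases overlap AL136295.5 on the same strand, so its reads are uncertain.

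PARP9 and DTX3L form a complex that modifies histones, their genes are adjacent, and PARP14 is a related ADP-ribosyltransferase. DTX3L (ENSG00000163840) stood at 26.2, 25.2 and 23.8 CPM (Ctrl), 34.3, 29.6 and 31.6 CPM (OHT), 29.3, 28.3 and 30.1 CPM (Dox) and 30.4, 34.3 and 28.3 CPM (OHT_Dox), with every OHT library above every Ctrl library. DTX3L rose by 0.34 ± 0.08 (adjusted p = 0.00422) in OHT against Ctrl and stood at 0.08 ± 0.08 (adjusted p = 0.51) in OHT_Dox against Dox. PARP9 (ENSG00000138496) stood at 19.1, 14.8 and 16.3 CPM (Ctrl), 20.6, 21 and 18.6 CPM (OHT), 20.9, 20.8 and 21.4 CPM (Dox) and 19.3, 19.2 and 19.7 CPM (OHT_Dox), and its Ctrl and OHT libraries overlapped. PARP9 rose by 0.26 ± 0.09 (adjusted p = 0.0404) in OHT against Ctrl and stood at -0.12 ± 0.09 (adjusted p = 0.365) in OHT_Dox against Dox. That rise was lost without any 1 of Ctrl replicates 2 and 3, OHT replicates 1 and 2, Dox replicate 2 or OHT_Dox replicate 1 (0.18 to 0.26), with no filter and after removal of length and GC trends.

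PARP14 (ENSG00000173193) stood at 51, 36.3 and 39.8 CPM (Ctrl), 47.2, 39.6 and 43.5 CPM (OHT), 55, 50.7 and 54.9 CPM (Dox) and 45.5, 44.4 and 39.1 CPM (OHT_Dox). Its Dox libraries lay above its OHT_Dox libraries and overlapped Ctrl. PARP14 fell in OHT_Dox against Dox, by -0.31 ± 0.10 (adjusted p = 0.0227), a call lost without Dox replicate 1, Dox replicate 3 or OHT_Dox replicate 3 (-0.30 to -0.25), and stood at 0.05 ± 0.10 in OHT against Ctrl.

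In 4 small groups no gene passed the limma test with OHT. Over all genes 8.79% fell and 12.6% rose without Dox, and 14.5% fell and 11.5% rose with Dox, so a count of 0 among 3 to 6 genes lies near these shares and says nothing particular to a group. In the ISG15 system, where UBE2L6 and HERC5 attach the ubiquitin-like protein ISG15 to new proteins, 0 of 4 genes passed the test in either background, 0 had an unadjusted p below 0.05, and edgeR and DESeq2 called 0. ISG15 ranged from 13.1 to 18.1 CPM, UBE2L6 from 38.9 to 49.6 CPM, HERC6 from 9.59 to 12.8 CPM and HERC5 from 0.448 to 1.37 CPM. Among the membrane and mitochondrial effectors 0 of 6 passed with limma. IFI6, an inhibitor of apoptosis, had an unadjusted p below 0.05 in OHT against Ctrl (-0.21 ± 0.08 (adjusted p = 0.0523)) and was called there in 6 of the alternatives, edgeR and DESeq2 among them, and in 3 of the fits without 1 library. The entry inhibitors IFITM1 (14.4 to 20.02 CPM), IFITM2 (124 to 165 CPM) and IFITM3 (222 to 287 CPM), the virion tether BST2 (0.934 to 2.06 CPM), IFI6 (21.2 to 26 CPM) and IFI27 did not pass the limma test in any comparison. IFITM1 and IFITM2 share exon bases on the same strand, so their split is uncertain.

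For antigen presentation, 0 of 3 genes passed the test with OHT, 0 had an unadjusted p below 0.05, and edgeR and DESeq2 called 0. B2M, the light chain of class I molecules, ranged from 333 to 389.6 CPM, with -0.06 ± 0.06 and -0.01 ± 0.06, and the peptide transporter TAP1 from 9.19 to 12.4 CPM. The non-coding PSMB8-AS1 ranged from 1.16 to 2.27 CPM, and its exons overlap those of PSMB8, PSMB9 and TAP1, so its reads are uncertain. Of the oligoadenylate synthetase group, which answers double-stranded RNA, 0 of 4 passed with OHT by limma, edgeR or DESeq2. OAS3 had an unadjusted p below 0.05 in OHT_Dox against Dox (-0.14 ± 0.05 (adjusted p = 0.0623)). OAS1 ranged from 4.5 to 6.38 CPM, OASL, which lacks synthetase activity and enhances RIG-I, from 0.252 to 0.797 CPM, and the RNA exonuclease ISG20 from 2.08 to 3.48 CPM.

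Dox, which lowered TCEAL1, was followed by a rise of 8 of the 40 genes and a fall of none in the absence of OHT. The 8 were SAMD9, GBP3, GBP2, SAMD9L, GBP1, PARP14, PARP9 and OAS3. Over all genes 5.68% rose and 2.61% fell (1061 and 487 genes), and this split turned to 519 and 771 after trimmed-mean rescaling of the libraries, under which 6 members rose and none fell. No member fell at an unadjusted p below 0.05 (0 of 40), and edgeR and DESeq2 called 0 falls and 6 and 8 rises. Over all genes edgeR and DESeq2 called 2.76% and 4.80% as risen and 4.31% and 6.25% as fallen. The median log2 fold change was 0.07, against 0.05 over all genes, and 28 of the 40 were above 0. In no member did all 6 libraries with Dox lie above (0.91% of all genes) or below (1.03%) all 6 without. The comparison shares its Ctrl libraries with OHT against Ctrl and its Dox libraries with OHT_Dox against Dox, so a high Dox value raises one change and deepens the other.

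SAMD9 rose by 0.66 ± 0.11 (adjusted p = 0.00134) on the log2 scale, or 1.58-fold, and GBP3 by 0.64 ± 0.11 (adjusted p = 0.00208), or 1.55-fold. For both, each Dox library lay above each Ctrl library, and the call held in every alternative. GBP2 rose by 0.50 ± 0.10 (adjusted p = 0.00953) and GBP1 by 0.39 ± 0.08 (adjusted p = 0.00746), also with no overlap. Without Dox replicate 2 neither was called (GBP2 0.49, adjusted p = 0.055, GBP1 0.36, adjusted p = 0.0515).

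SAMD9L rose by 0.42 ± 0.11 (adjusted p = 0.0267), PARP9 by 0.33 ± 0.09 (adjusted p = 0.028) and PARP14 by 0.35 ± 0.10 (adjusted p = 0.0367). OAS3 (ENSG00000111331), the largest of the oligoadenylate synthetases, stood at 119, 109.8 and 108 CPM (Ctrl), 108, 103 and 107 CPM (OHT), 133, 128 and 126 CPM (Dox) and 119, 119 and 115 CPM (OHT_Dox), and its Dox libraries lay above all others. OAS3 rose by 0.20 ± 0.05 (adjusted p = 0.0251). These 4 calls were lost when single libraries were left out: PARP9 and OAS3 without any 1 of Ctrl replicates 2 and 3 and the 3 Dox libraries (0.25 to 0.34 and 0.18 to 0.22), PARP14 without those or OHT replicate 3 (0.25 to 0.39), and SAMD9L without Ctrl replicates 2 or 3 or Dox replicates 1 or 2 (0.37 to 0.41). After trimmed-mean rescaling and by edgeR, PARP14 and OAS3 were not called, nor was PARP14 with no filter.

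Base composition moved with the Dox effect. Across 18673 genes the log2 fold change of Dox against Ctrl had a Spearman correlation of -0.307 with transcript GC content, that of OHT_Dox against Dox 0.295 and that of OHT against Ctrl -0.016 (genes are not independent). The median GC content was 42.6% for the 8 genes that rose with Dox, 45.8% for the 40 members and 48.2% for all genes, and the median transcript length was 6744, 3272 and 2831 bases. With the trends on GC content and length removed, 4 members and 2.01% of all genes rose with Dox. The members were SAMD9 at 0.49 (adjusted p = 9.65e-04), GBP3 at 0.53 (adjusted p = 0.00493), GBP2 at 0.42 (adjusted p = 0.0138) and GBP1 at 0.31 (adjusted p = 0.00769). SAMD9L, at 0.25 (adjusted p = 0.0985), PARP9, PARP14 and OAS3 were no longer called.

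With OHT present, Dox was followed by a rise of 2 members, GBP3 and GBP1, and a fall of none, against 0.509% and 1.59% of all genes. GBP3 rose by 0.47 ± 0.11 (adjusted p = 0.0219) and GBP1 by 0.33 ± 0.08 (adjusted p = 0.0224) on the log2 scale, both also called by edgeR and DESeq2. For GBP3 and GBP1 each OHT_Dox library lay above each OHT library. Both calls were lost when single libraries were left out: GBP1 without OHT replicate 1, OHT_Dox replicate 1 or OHT_Dox replicate 2 (0.25 to 0.32), and GBP3 without any 1 of these, OHT replicate 2 or OHT_Dox replicate 3 (0.40 to 0.49). No member was called as lower by limma, edgeR or DESeq2 (0), and 2 were lower at an unadjusted p below 0.05. The median log2 fold change was 0.01, against 0.02 over all genes, with 20 genes above 0 and 20 below. Across the 40 genes the Dox effects without and with OHT, which share no library, had a Pearson correlation of 0.436 and a Spearman correlation of 0.424, and 26 had the same sign. These values are not given here for all genes either.

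**Figure D3:**
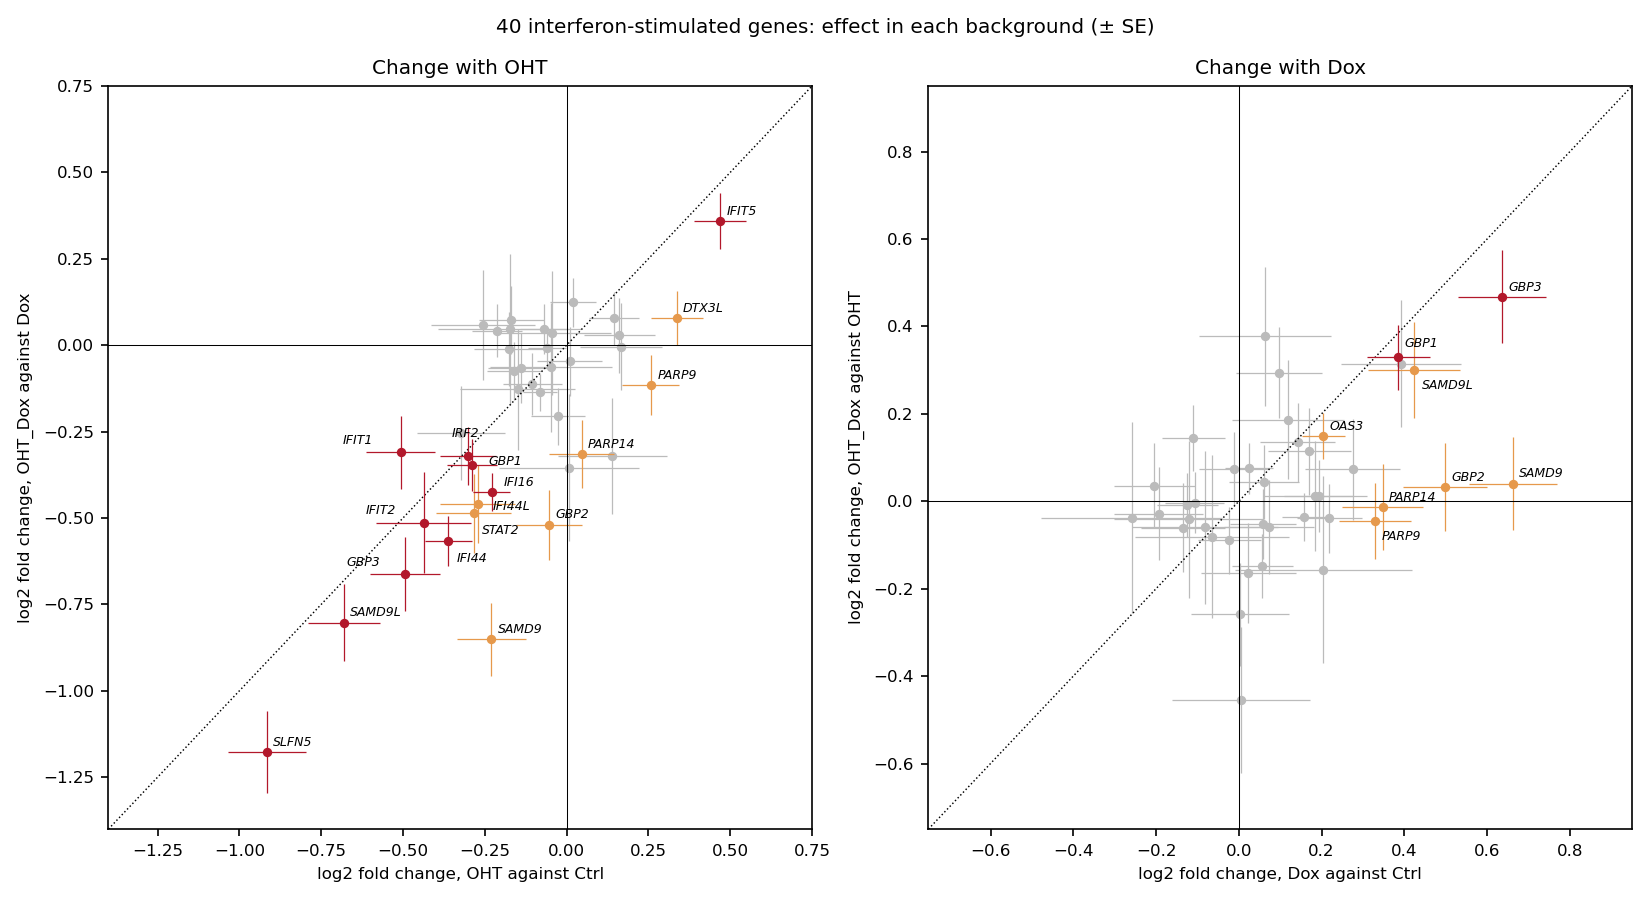
Log2 fold change ± SE of the 40 genes with OHT (left, without Dox on the horizontal axis and with Dox on the vertical axis) and with Dox (right, without and with OHT), the dotted line marking equal effects. Red genes passed the test in both backgrounds, orange in 1 and grey in none. SLFN5 is lowest on both axes at left. SAMD9 and GBP2 lie off the line, and the vertical distance from it is the same quantity in both panels. That distance is the interaction of OHT and Dox, which was called for 0 of the 40 genes.

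Whether the effect of OHT differed with Dox was tested by the interaction, the OHT effect with Dox minus that without. It was called for 0 of the 40 members by limma, edgeR and DESeq2, and for 0% of all genes by limma. At an unadjusted p below 0.05 stood 7 members and 2879 of all 18674 genes. Of these 7, SAMD9 had the largest value, -0.62 ± 0.15 (adjusted p = 0.221), then GBP2 with -0.47 ± 0.14 (adjusted p = 0.221), PARP9 with -0.37 ± 0.12 (adjusted p = 0.221) and PARP14 with -0.36 ± 0.14 (adjusted p = 0.248). BST2, a low gene whose unadjusted p was not below 0.05, stood at -0.46 ± 0.24 (adjusted p = 0.357). The 5 genes that fell with OHT past the threshold only where Dox was present (SAMD9, GBP2, IFI44L, STAT2 and PARP14) are therefore not shown to differ between the backgrounds. Without Ctrl replicate 1, 3 members were called (SAMD9, PARP9 and PARP14). The share of all genes called in that fit is not given here, so these calls are not read as particular to the members. With the GC and length trends removed the interactions of SAMD9, GBP2, PARP9 and PARP14 were -0.40, -0.39, -0.21 and -0.17, and across all genes the interaction had a Spearman correlation of 0.383 with GC content.

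The other parts of the interferon pathway are given by lists of ligands, receptors, restraints, sensors, further target genes and antigen processing. Of 8 interferon ligands, IFNE, an epithelial type I interferon, has a row and reached 0.417 CPM, under the limit for testing. IFNB1, IFNK, IFNW1, IFNL1, IFNL2, IFNL3 and IFNG were not analysed here. All type I and type II receptor chains were present in every library: IFNAR1 at 50.5 to 64 CPM, IFNAR2 at 17.3 to 21.8 CPM, IFNGR1 at 21.1 to 25.4 CPM and IFNGR2 at 71.4 to 81.3 CPM. IFNLR1 was not analysed here. IL10RB, the chain shared by the type III interferon and IL-10 receptors, ranged from 26.7 to 38.6 CPM.

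Of 8 receptors and kinases tested, 1 fell in OHT against Ctrl (8.79% of all genes) and 2 fell in OHT_Dox against Dox (14.5% of all genes), counts near those shares. In both, 0 rose by limma, edgeR or DESeq2, also at an unadjusted p below 0.05. IL10RB fell in both, by -0.26 ± 0.07 (adjusted p = 0.012) and -0.39 ± 0.07 (adjusted p = 3.56e-04). IFNAR1 fell in OHT_Dox against Dox by -0.23 ± 0.06 (adjusted p = 0.0079). Without Dox it was not called by limma, but stood at 50.5 to 50.9 CPM (OHT) against 52.5 to 58.7 CPM (Ctrl). Its fall is thus not shown to be particular to 1 background. In Dox against Ctrl 1 of the 8 rose, a count near the share of all genes (5.68%). It was JAK1, a kinase that serves both receptor types, which rose by 0.27 ± 0.06 (adjusted p = 0.0112). The kinases TYK2 (74.5 to 104 CPM) and JAK2 (4.8 to 7.12 CPM), IFNAR2, IFNGR1 and IFNGR2 passed the test in no comparison.

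Of 11 restraints on interferon signalling tested, 3 fell in OHT_Dox against Dox (14.5% of all genes), and 3 rose and 1 fell in Dox against Ctrl (5.68% and 2.61% of all genes, the split that trimmed-mean rescaling turns). In OHT against Ctrl 0 passed by limma, 4 had an unadjusted p below 0.05, and edgeR and DESeq2 each called 1. The phosphatase PTPN1, the STAT inhibitor PIAS1 and the suppressor SOCS3 rose with Dox, by 0.25 ± 0.06, 0.32 ± 0.08 and 0.31 ± 0.09, and fell with OHT in the presence of Dox, by -0.21 ± 0.06, -0.28 ± 0.08 and -0.26 ± 0.09, comparisons that share the Dox libraries. The Dox calls of the pathway lists are not given here with the length and GC trends removed or with single libraries left out. SOCS1, which blocks JAK kinases and has a transcript GC content of 69.1%, fell with Dox in both backgrounds. Its log2 fold changes were -0.67 ± 0.14 (adjusted p = 0.0121) without OHT and -0.62 ± 0.14 (adjusted p = 0.023) with OHT. It stood at 5.02, 5.73 and 6.15 CPM (Ctrl), 4.55, 4.09 and 4.55 CPM (OHT), 3.72, 2.88 and 3.5 CPM (Dox) and 2.35, 2.35 and 3.44 CPM (OHT_Dox).

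Of 11 genes for nucleic acid sensing and its adaptors tested, 3 rose and 2 fell in OHT against Ctrl (12.6% and 8.79% of all genes), and 2 rose and 1 fell in OHT_Dox against Dox (11.5% and 14.5%). TRIM25, the ligase that activates RIG-I, rose by 0.69 ± 0.07 (adjusted p = 4.35e-07) without Dox and 0.46 ± 0.07 (adjusted p = 5.33e-05) with Dox. TRAF3, which links sensors to interferon production, rose by 0.64 ± 0.06 (adjusted p = 8.67e-08) and 0.46 ± 0.06 (adjusted p = 6.23e-06). MAVS, the mitochondrial adaptor of the RNA sensors, fell by -0.34 ± 0.10 (adjusted p = 0.0154) and -0.47 ± 0.10 (adjusted p = 0.00109), and STING1, the adaptor of the DNA sensor CGAS, fell without Dox by -0.28 ± 0.08 (adjusted p = 0.0157). TBK1, the kinase that activates IRF3, rose in OHT against Ctrl by 0.21 ± 0.08 (adjusted p = 0.049) and in Dox against Ctrl by 0.30 ± 0.08 (adjusted p = 0.0223), comparisons that share the Ctrl libraries.

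Of 32 further interferon-stimulated genes tested, 8 fell and 3 rose in OHT against Ctrl (8.79% and 12.6% of all genes), and 12 fell and 2 rose in OHT_Dox against Dox (14.5% and 11.5%). The medians of their log2 fold changes were -0.06 and -0.18, against -0.01 and -0.03 over all genes. TRIM38, a ligase that limits inflammatory signalling, fell by -0.68 ± 0.09 (adjusted p = 1.26e-05) and -0.93 ± 0.09 (adjusted p = 2.34e-07). TRIM5, which restricts retroviral capsids, fell in OHT against Ctrl by -0.40 ± 0.08 (adjusted p = 9.73e-04), and APOL6, a member of the apolipoprotein L family, fell in OHT_Dox against Dox by -0.62 ± 0.09 (adjusted p = 4.94e-05). In the other background, TRIM5 stood at 21.9 to 24.5 CPM (OHT_Dox) against 31.0 to 32.7 CPM (Dox). There APOL6 stood at 10.5 to 11.4 CPM (OHT) against 12.6 to 15.7 CPM (Ctrl), so neither fall was particular to 1 background. SAT1, a polyamine-degrading enzyme, fell with OHT in the presence of Dox by -0.76 ± 0.10 (adjusted p = 9.12e-06). In OHT_Dox against OHT 1 of the 32 genes fell, a count near the share of all genes (1.59%). It was SAT1, which fell by -0.53 ± 0.10 (adjusted p = 0.00356). The ADP-ribosyltransferase PARP10 rose by 0.36 ± 0.07 (adjusted p = 4.90e-04) and 0.54 ± 0.07 (adjusted p = 5.19e-06), and TRIM14, an adaptor of MAVS, rose by 0.27 ± 0.05 (adjusted p = 5.21e-04) and 0.32 ± 0.05 (adjusted p = 8.32e-05). With Dox alone 3 of the 32 rose and 0 fell by limma (5.68% and 2.61% of all genes). These were TRIM38, TRIM5 and the RNA editor ADAR, by 0.36 ± 0.09, 0.31 ± 0.08 and 0.21 ± 0.06. There edgeR called 2 rises and 0 falls (2.76% and 4.31% of all genes), and DESeq2 3 rises and 2 falls (4.80% and 6.25%).

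Of 15 antigen-processing genes tested, 1 rose and 2 fell in OHT against Ctrl (12.6% and 8.79% of all genes), and 2 rose and 1 fell in OHT_Dox against Dox (11.5% and 14.5%), counts near or below those shares. NLRC5, the transactivator of class I genes, rose in both, by 0.89 ± 0.10 (adjusted p = 1.09e-06) and 0.89 ± 0.10 (adjusted p = 1.15e-06). HLA-E fell without Dox by -0.35 ± 0.07 (adjusted p = 6.12e-04), and the chaperone CALR by -0.19 ± 0.06 (adjusted p = 0.0198). With Dox the immunoproteasome subunit PSMB10 rose by 0.49 ± 0.10 (adjusted p = 0.0018) and the peptidase ERAP2 fell by -0.20 ± 0.06 (adjusted p = 0.0133). HLA-B (4.17 to 7.39 CPM) and HLA-C (88 to 109 CPM) passed the test in no comparison, and reads of these near-identical genes are uncertain.

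**Figure D4:**
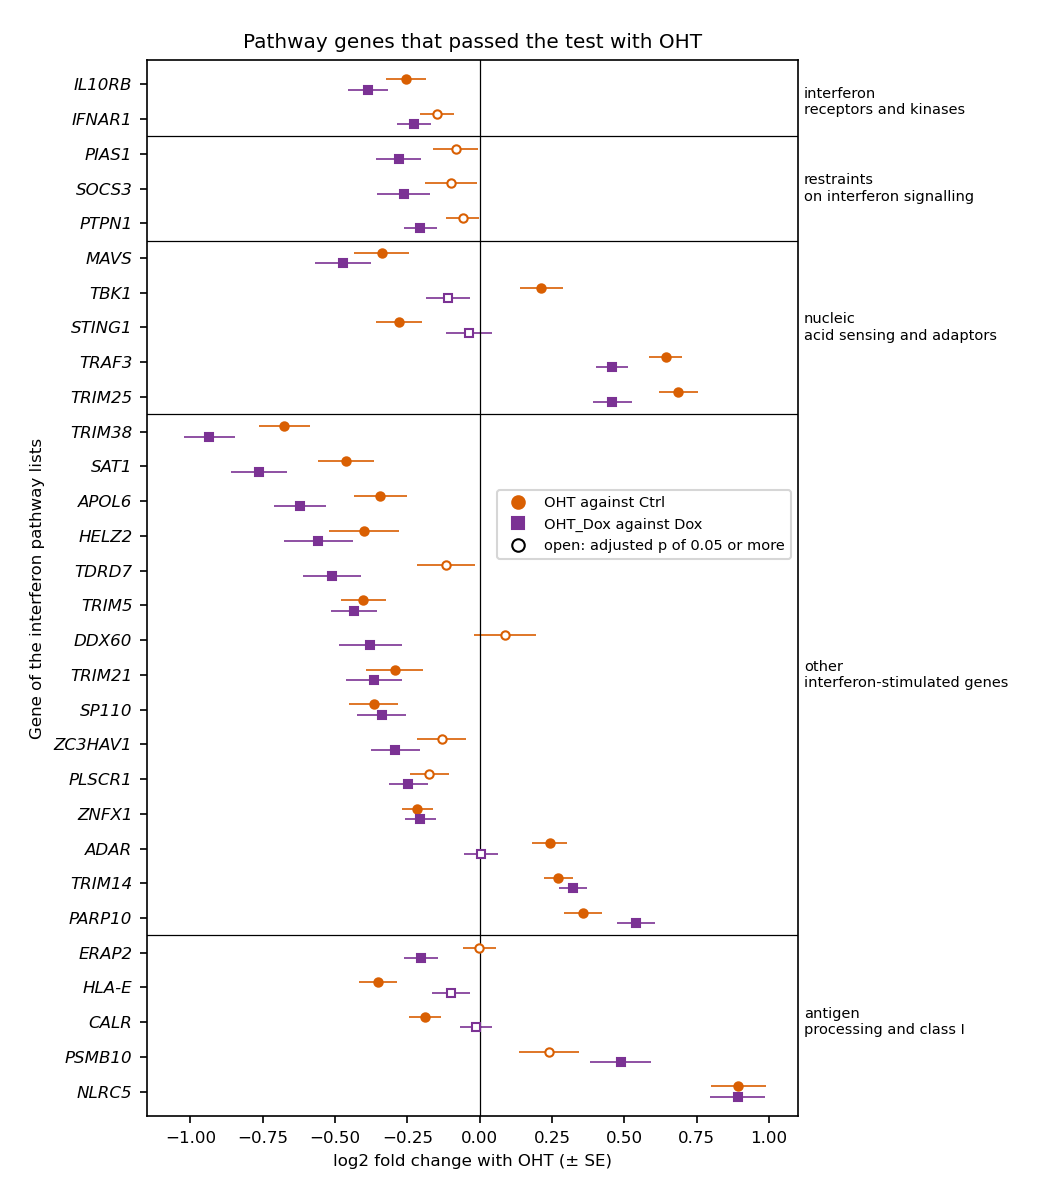
Log2 fold change ± SE with OHT of the genes of 5 pathway lists that passed the test in at least 1 background, without Dox (orange circles) and with Dox (purple squares), with open symbols where the adjusted p was 0.05 or more. TRIM38 lies lowest in both backgrounds, and NLRC5, TRIM25 and TRAF3 highest in OHT against Ctrl.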

How the data were processed

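The 12 poly(A) RNA-seq libraries are strand-specific, per the labels' protocols. The table's values are CPM as deposited, and each library sums to 1000000. The submitters' processing notes name the builds hg19 and mm10 and, among other tools, STAR, Bowtie2 and featureCounts, for several assays together. Which tool made the table, the annotation and the counting strand are not given in the sources used here, so overlapping and antisense genes are uncertain. All values (100%) were whole reads within 0.01 reads, and these reads entered the edgeR and DESeq2 alternatives. The table holds no gene with fewer than 13 reads in total.

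Genes with at least 0.5 CPM in at least 3 libraries were transformed to log2(CPM + 0.5) and entered a limma fit (version 3.58.1, R 4.3.3) that gave each of the 4 groups its own mean over all 12 libraries, with a mean trend. Fold changes are on that scale, which understates changes of low genes. Tests are two-sided, and a call is a Benjamini-Hochberg adjusted p below 0.05 over all 18674 genes, in each of 5 contrasts. Names, lengths, GC content and overlaps come from GENCODE 29 (28572 identifiers matched), and promoters from RefSeq (GRCh38.p14).

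The members and lists were chosen with earlier results of these data known. Some genes of the pathway and marker lists are not reported here and enter no list count. Every member was accounted for, those called with their values, all receptors were named, and up to 4 called genes with the smallest p per other list and contrast. Alternatives were other pseudocounts (0.1 and 1), no filter or at least 1 CPM in 6 libraries, trimmed-mean rescaling, a replicate block, edgeR 4.0.16, DESeq2 1.42.0, leaving out each library, or Dox replicate 1 with OHT_Dox replicate 3, and removal of length and GC trends, added after seeing the data. The edgeR test called 13 members for OHT without Dox, 15 for OHT with Dox, 6 for Dox without OHT, 2 for Dox with OHT and 0 for the interaction, and DESeq2 called 14, 15, 8, 2 and 0. Over all genes, edgeR rises and falls were 12.7% and 8.89% (OHT without Dox) and 13.6% and 11.7% (OHT with Dox). They were 2.76% and 4.31% (Dox without OHT) and 0.455% and 2.00% (Dox with OHT). For DESeq2 they were, in that order, 13.2% and 10.6%, 14.1% and 13.1%, 4.80% and 6.25%, and 0.889% and 2.78%. The fit was tested on simulated data.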

Additional observations from a re-analysis of the deposited data

How the results depend on the processing

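No member call changed direction in any alternative. Of the 37 calls of members, 21 held in every alternative, 15 were lost without at least 1 library and 1 only without Dox replicate 1 and OHT_Dox replicate 3 together (IRF2 in OHT_Dox against Dox). The count of members called in OHT against Ctrl was 12 (10 to 13 when 1 library was left out) and in OHT_Dox against Dox 15 (12 to 16). In Dox against Ctrl it was 8, between 2 and 9 when 1 library was left out, with 2 without Dox replicate 2, 4 without Ctrl replicate 2, Ctrl replicate 3 or Dox replicate 1, and 5 without Dox replicate 3. It was 4 after removal of the length and GC trends (rises of all genes then 2.01%, in place of 5.68%), where OHT against Ctrl had 14 falls in place of 9 (13.5% of all genes, in place of 8.79%). In OHT_Dox against OHT it was 2, between 0 and 2 when 1 library was left out (0 without OHT replicate 1, OHT_Dox replicate 1 or OHT_Dox replicate 2, and 1 without OHT replicate 2 or OHT_Dox replicate 3), 1 without Dox replicate 1 and OHT_Dox replicate 3 together, and 3 after removal of the trends, SAMD9L being added. The interaction count was 0, and 0 to 3 when 1 library was left out, with 3 without Ctrl replicate 1. The shares of all genes called in the fits without 1 library are not given here, so these counts cannot be set against them. The cause of these differences was not tested, beyond the fewer libraries. Below about 1 CPM, where OASL, IFI27 and HERC5 lie, the standard errors were 0.19 to 0.22, and changes larger than these could also miss the threshold. HERC5, for example, stood at -0.35 on the log2 scale in OHT_Dox against Dox and was not called.

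With the replicate number as a block, the members called numbered 13 for OHT without Dox, 16 for OHT with Dox, 8 for Dox without OHT, 2 for Dox with OHT and 0 for the interaction. No call was lost and 2 were gained. The shares of all genes called with the block are not given here. Same-numbered libraries had correlations of -0.17 to 0.33 in their deviations from the group means, most of them above 0. Differently numbered libraries had correlations of -0.26 to 0.28, most of them below 0. The labels do not say that the numbers pair the libraries, and whether they do was not tested. The main fit therefore has no block, and the fit with the block is given beside it.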
